A study of Oryza sativa with 26 samples.

Results

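The bicellular pollen peak is a set of 84 probe sets whose transcript level in rice anthers (Oryza sativa) was far higher at the bicellular pollen stage, P2, than at any other stage sampled. A probe set is a group of short oligonucleotides on the Affymetrix Rice Genome Array designed to read a transcript; some can bind transcripts of related genes. Members were chosen on the deposited intensities: on the scale log2(intensity + 1), the P2 mean had to lie at least 2 above the highest mean of the other 7 stages. Of the 57194 probe sets that are not array controls, 84 (0.147%) met this. Intensities are relative values in which 1 is the 75th percentile of the array. The height of P2 above the other stages is therefore the way the members were picked, and it is given below as a description with no test.

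The series holds 26 arrays of whole anthers from plants grown under normal conditions in paddy fields, with no treatment named. Before and during meiosis, An1 is the forming of hypodermal archesporial cells (3 arrays), Mei1 the premeiotic S or G2 phase (3), M1 leptotene (4), M2 zygotene to pachytene (3) and M3 diplotene to tetrad (4). After meiosis, P1 holds uninucleate gametophytes (3 arrays), P2 bicellular pollen (3) and P3 tricellular, mature pollen (3). By their titles the arrays of 1 stage are biological replicates, with nothing on separate plants, so p-values measure the spread between these arrays.

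In a flowering plant a haploid microspore divides unequally into a large vegetative cell, which later makes the pollen tube, and a small generative cell, which divides again into the sperm cells. Around that time the tapetum, the nurse layer of the anther wall, breaks down, and in cereals the pollen begins to fill with starch made from sugar unloaded outside the pollen wall. Enzymes that split sucrose, remodel wall polysaccharides and supply amino acids, and carriers that bring in ions, are typical of this phase.

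The labelled stage was checked against marker genes. The summed intensity of 3 genes known from filling pollen was taken: KAO of gibberellin synthesis, WX1 of starch synthesis and the sucrose carrier SUT1. It was 51.9 to 107 over the P2 arrays, 0.867 to 1.81 over the P1 arrays and 25.1 to 44.6 over the P3 arrays. That of 10 tapetum genes was 460 to 606 in P1, 159 to 259 in P2 and 17.4 to 18.1 in P3. The tapetum gene RTS made up much of the P2 sum. Of the 10 genes, 4 or 5 were under 0.5 on each P2 array, against at most 1 on a P1 array. The pollen actin-severing gene ADF1 was 20.1, 52.0 and 57.7 on the P2 arrays and at most 0.488 on any array up to P1. Green tissue genes (4) summed to 26.6 to 45.7 in P2 and 2.53 to 4.04 in P3. Across probe sets, arrays of a stage correlated at 0.950 to 0.987 in P1, 0.931 to 0.977 in P2 and 0.849 to 0.982 in P3. In whole anthers, more cells of a type and more RNA per cell cannot be told apart.

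The 84 members formed a sharp peak with a shorter tail towards mature pollen. Over the members, the median intensity was 17.5, 21.5 and 21.01 on the P2 arrays. It was 0.251, 0.322 and 0.676 on the P1 arrays and 1.66, 1.59 and 1.43 on the P3 arrays. On the 17 arrays from An1 to M3 it lay between 0.167 and 0.302. All 3 P2 arrays were above all 23 other arrays for 81 of the 84 members, a separation that the rule itself favours. The 3 with an overlap were LOC4338883 and LOC4343804, which P1 replicate 3 reached, and LOC4348467, which P3 replicate 2 reached (11.0, against 10.4 on the lowest P2 array). P2 means ran from 4.23 to 183 with a median of 20.1, and were 2.97 to 55.6 times the mean of the next highest stage (median 9.80); for the members near the floor at every other stage this fold is only a rough size.

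**Figure D1:**
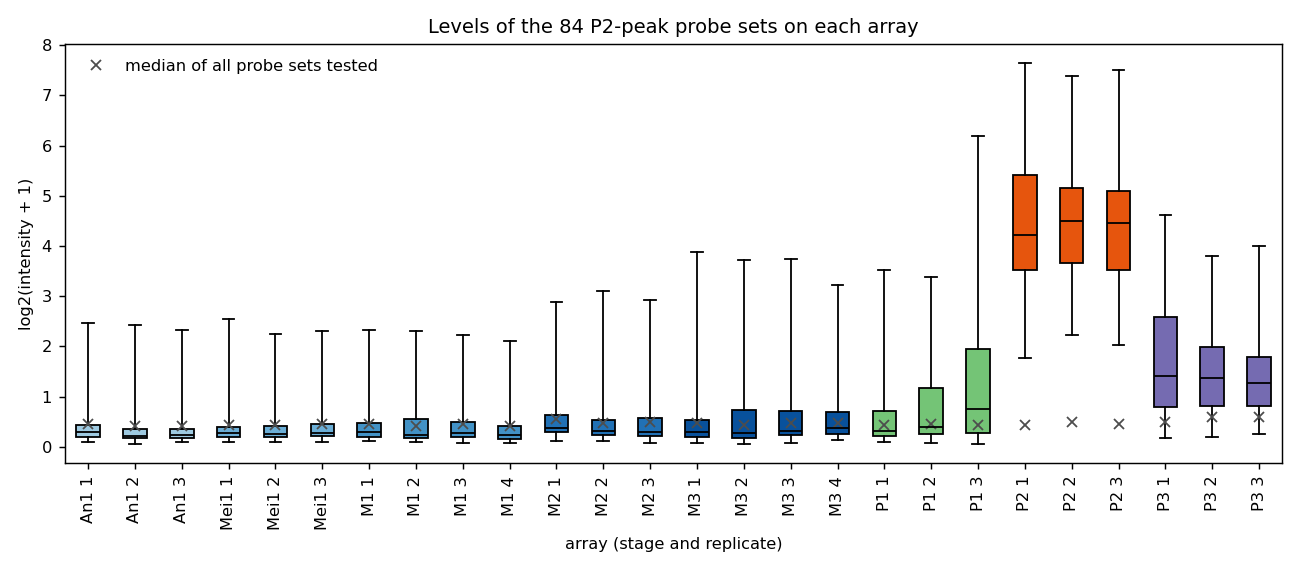
Each box shows log2(intensity + 1) of the 84 members on 1 array (line, median; box, quartiles; whiskers, lowest and highest), and each cross the median of all 47799 probe sets tested. The boxes of the 3 P2 arrays stand above those of all other arrays, P3 is raised over the earlier stages, and P1 replicate 3 is raised over the other P1 arrays.

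Before P1 most members were near the floor of the array. The stage mean was under 1 in all 5 stages from An1 to M3 for 66 of the 84, and under 1 in all 7 other stages for 17. Among all probe sets tested the first share was 63.2%, so low early levels are common on this array. The P1 mean reached 1 for 32 members (median of all 84, 0.489) and the P3 mean for 62 (median 1.70). The stage with the next highest mean was P3 for 62 members, P1 for 13, An1 for 4, M3 for 3 and Mei1 for 2. Over all probe sets tested the same stages took 52.0%, 8.28%, 13.4%, 5.10% and 6.12%. Scaled on spike-in controls instead, P3 was next for 48 of the 84 members, and the share over all probe sets was not counted in that scaling. The same rule applied to other stages gave 475 probe sets for P3, 22 for P1, 6 for M3 and 0 for each of the other 4.

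**Figure D2:**
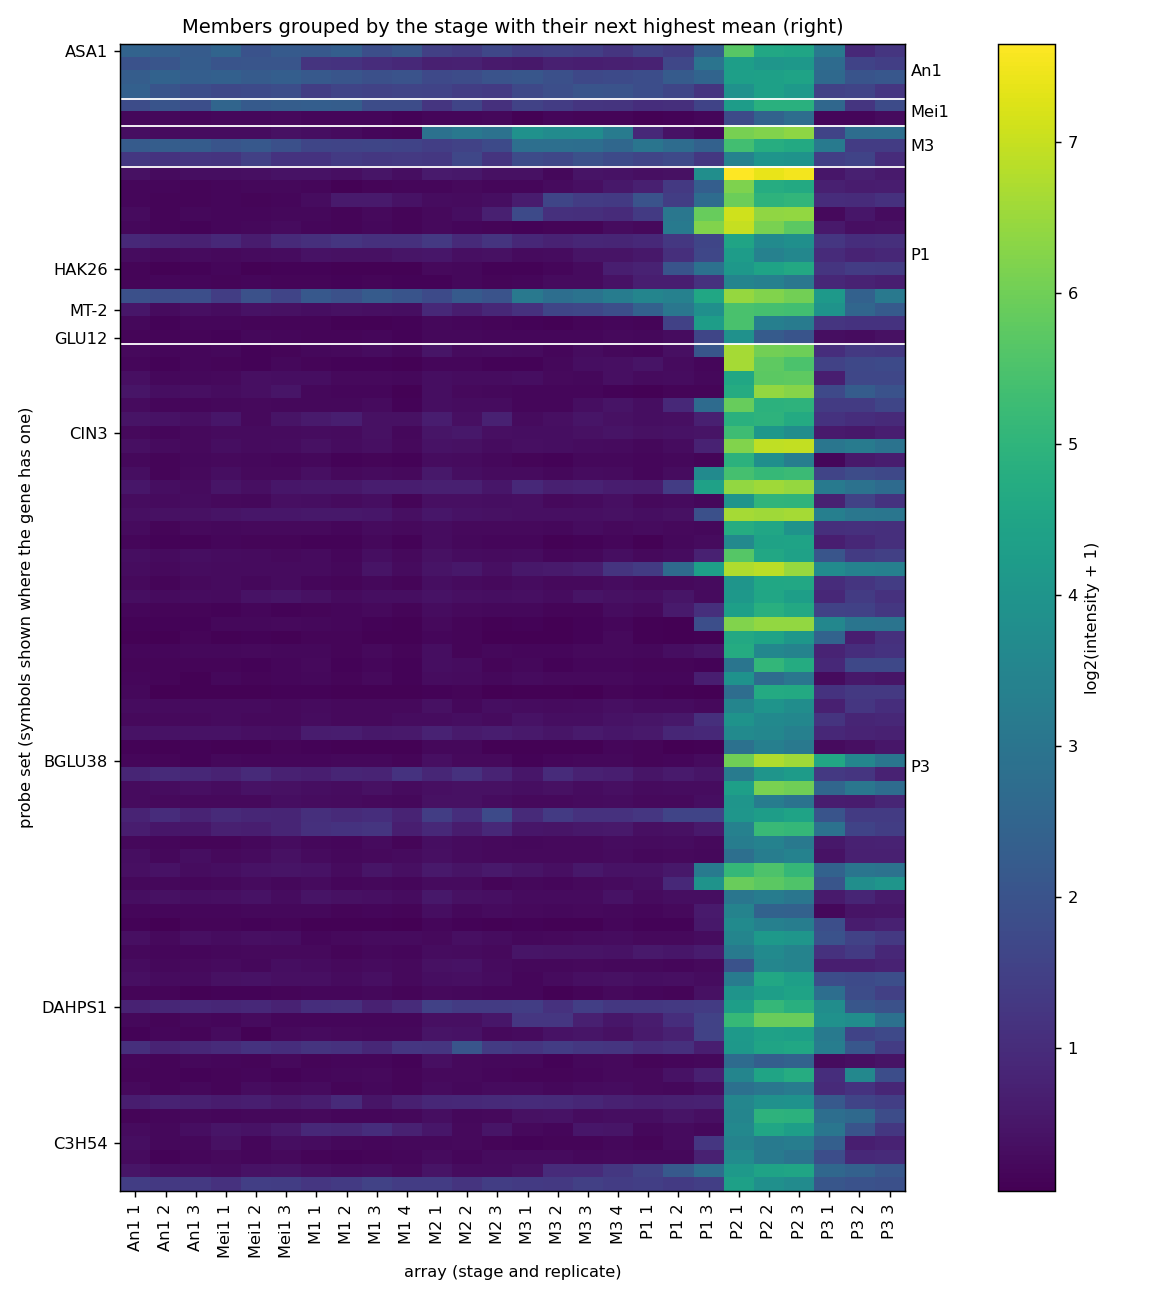
Rows are the 84 members, columns the 26 arrays, and colour is log2(intensity + 1). Rows are grouped by the stage with the next highest mean, named at the right, where P3 holds 62 rows and P1 holds 13. The 3 columns of P2 are the brightest in nearly every row.

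Of the members, 8 have a gene with a symbol, and these are described by role. CIN3 (LOC4335789), a cell wall invertase, splits sucrose outside the cell so that the hexoses can be taken up. Its intensity was 38.4, 16.0 and 12.6 on the P2 arrays, 0.315, 0.340 and 0.358 in P1, and 0.527, 0.451 and 0.617 in P3. On the 17 arrays from An1 to M3 it ran from 0.141 (median 0.239) to 0.446. CIN3 was thus near the floor everywhere except in P2, where replicate 1 was the highest. No comparison between the other stages passed for it: the log2 difference from P1 to P3 was 0.19 (SE 0.21, limma adjusted p = 0.415).

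BGLU38 (LOC4352082) belongs to the beta-glucosidases, which release glucose from beta-linked sugars and glycosides. It read 63.4, 105 and 93.6 in P2 and 23.5, 10.5 and 7.04 in P3. The P1 arrays gave 0.110, 0.128 and 0.199, within the range of the 17 earlier arrays (0.0857 to 0.295, median 0.146). The transcript therefore stayed well above the early level in all 3 P3 arrays, without overlap. By limma it rose by 3.52 on the log2 scale from P1 to P3 (SE 0.23, adjusted p = 6.63e-11), the largest rise among members of 1 gene.

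GLU12 (LOC4347660), of the endoglucanases that cut cellulose-like glucans, lay at the edge of the rule, with a margin just above 2. Its P2 arrays gave 13.7, 3.69 and 3.09, and its P3 arrays 0.260, 0.231 and 0.321. In P1 it was 0.155, 0.234 and 2.09, against 0.0923 to 0.175 (median 0.137) before. Replicate 1 of P2 and replicate 3 of P1 set its means, and none of the comparisons outside P2 passed. A second GLU12 probe set showed no such peak, with 0.231 ± 0.0296 in P2 and 0.354 in P3.

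DAHPS1 (LOC4333014) encodes the first enzyme of the shikimate pathway, from which tryptophan, phenylalanine and tyrosine are made. It read 18.8, 33.3 and 27.6 in P2, 12.6, 3.20 and 2.80 in P3, and 1.43, 1.51 and 1.58 in P1. The 17 earlier arrays ran from 0.688 (median 1.09) to 1.89. The P3 arrays were all above the P1 arrays, by most in P3 replicate 1. From P1 to P3 DAHPS1 rose by 1.26 on the log2 scale (SE 0.29, limma adjusted p = 0.000850), but without P3 replicate 1 the difference was 0.67, under the threshold of 1, and fitted on the P1 and P3 arrays alone its adjusted p was 0.0659. Scaled on spike-in controls, the difference was 0.60 (limma adjusted p = 0.222).

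ASA1 (LOC4334640), the alpha subunit of anthranilate synthase, catalyses the step that commits chorismate to tryptophan. Its P2 values were 49.9, 23.5 and 21.8. Its other values were 1.85, 1.58 and 4.02 in P1, 7.72, 0.922 and 1.36 in P3, and 1.33 to 4.65 (median 2.94) from An1 to M3. Unlike CIN3 and BGLU38, ASA1 was above 1 on all 17 early arrays. Outside P2 it did not pass any comparison (P1 to P3, 0.03 on the log2 scale, SE 0.38, limma adjusted p = 0.941).

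Its partner subunit ASB1 (LOC4336076), no member and chosen after its values were seen, was also highest in P2: 28.3 ± 13.2 (SD, n = 3), against 3.61 ± 0.876 in P1 and 2.48 ± 1.14 in P3. By limma ASB1 rose by 2.60 from P1 to P2 (SE 0.32, adjusted p = 1.45e-06) and fell by 3.03 from P2 to P3 (SE 0.32, adjusted p = 1.83e-07). Of 9 genes of aromatic amino acid synthesis tested, a list added after values were seen, 3 were highest in P2: DAHPS1, ASA1 and ASB1. The other DAHPS gene, DAHPS2 (LOC4343946), was highest in An1, and ASA2 (LOC4332341) likewise.

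HAK26 (LOC4345999) belongs to the HAK family of potassium carriers. Its P2 arrays gave 16.2, 21.1 and 23.7. In P1 it read 0.726, 3.03 and 6.46, and in P3 1.32, 1.67 and 1.58. Up to M3 it ran from 0.0600 (median 0.0939) to 0.619, below all P1 and P3 arrays. From M3 to P1 HAK26 rose by 1.58 on the log2 scale (SE 0.27, limma adjusted p = 0.000592, and 0.0633 fitted on the M3 and P1 arrays alone), and from M3 to P3 by 1.01 (SE 0.27, adjusted p = 0.00261). The second value is at the threshold of 1 and fell to between 0.94 and 1.00 without M3 replicate 1, 2 or 3 or P3 replicate 2 or 3. Without P1 replicate 1, HAK26 fell from P1 to P3 by 1.12 (adjusted p = 5.10e-05), against 0.57 and adjusted p = 0.0834 with all arrays. Scaled on spike-in controls, its rise from M3 to P3 was 0.69 (limma adjusted p = 0.0630). The fall from P1 to P3 was then 1.17 (adjusted p = 0.00244).

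Of the 21 HAK genes tested, 6 were highest in P2 and 11 in P3. Among all probe sets tested 9.82% were highest in P2 and 47.8% in P3, so the share in P3 is near that of the array. Only HAK26 was a member. Outside the members HAK2 (LOC4326793), HAK10, HAK15 and HAK25 (LOC4330614) rose from P1 to P2 by limma and HAK12 fell; the first and last of the 4 that rose were highest in P2. These genes were chosen after their values were seen. HAK2 went from 3.54 ± 0.174 to 14.3 ± 2.62 (limma adjusted p = 2.99e-08) and HAK25 from 1.90 ± 0.205 to 5.15 ± 0.410 (adjusted p = 1.27e-06), with 3 arrays in each stage.

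MT-2 (LOC4325218) encodes a metallothionein, a small cysteine-rich protein that binds metal ions. Its member probe set read 43.0, 41.9 and 39.5 in P2, the tightest P2 values of the 8 named genes. The P1 values were 4.37, 7.37 and 13.4, the P3 values 14.4, 4.92 and 3.60, and the early range 0.212 to 2.69 (median 0.335). MT-2 was higher than M3 on both sides of the peak: by 1.53 in P1 (SE 0.29, limma adjusted p = 0.00206) and by 1.32 in P3 (SE 0.29, adjusted p = 0.000613), the latter 0.80 without P3 replicate 1. Scaled on spike-in controls, the P3 difference of this probe set was 0.90 (limma adjusted p = 0.0824). This probe set can bind related transcripts. Of the 3 other probe sets of the gene, the brightest had 125 ± 7.10 in P2, 49.4 in P1 and 53.4 in P3, again highest in P2 but with a margin of 1.36.

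C3H54 (LOC4344566), a CCCH zinc finger protein of a class that often binds RNA, was the only member among the 236 genes tested of the transcription factor and zinc finger list. Its values were 9.98, 7.97 and 8.68 in P2, 4.06, 0.628 and 0.723 in P3, and 0.118, 0.209 and 1.38 in P1. From An1 to M3 it lay between 0.0963 and 0.315 (median 0.156). P3 stood above every early array, with replicate 1 the highest. From M3 to P3 it rose by 1.10 on the log2 scale (SE 0.26, limma adjusted p = 0.00107). The rise was 0.57 without P3 replicate 1 and 0.92 scaled on spike-in controls. Without P1 replicate 3, C3H54 also rose from P1 to P3 (1.06, adjusted p = 0.00291, against 0.71 with all arrays).

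**Figure D3:**
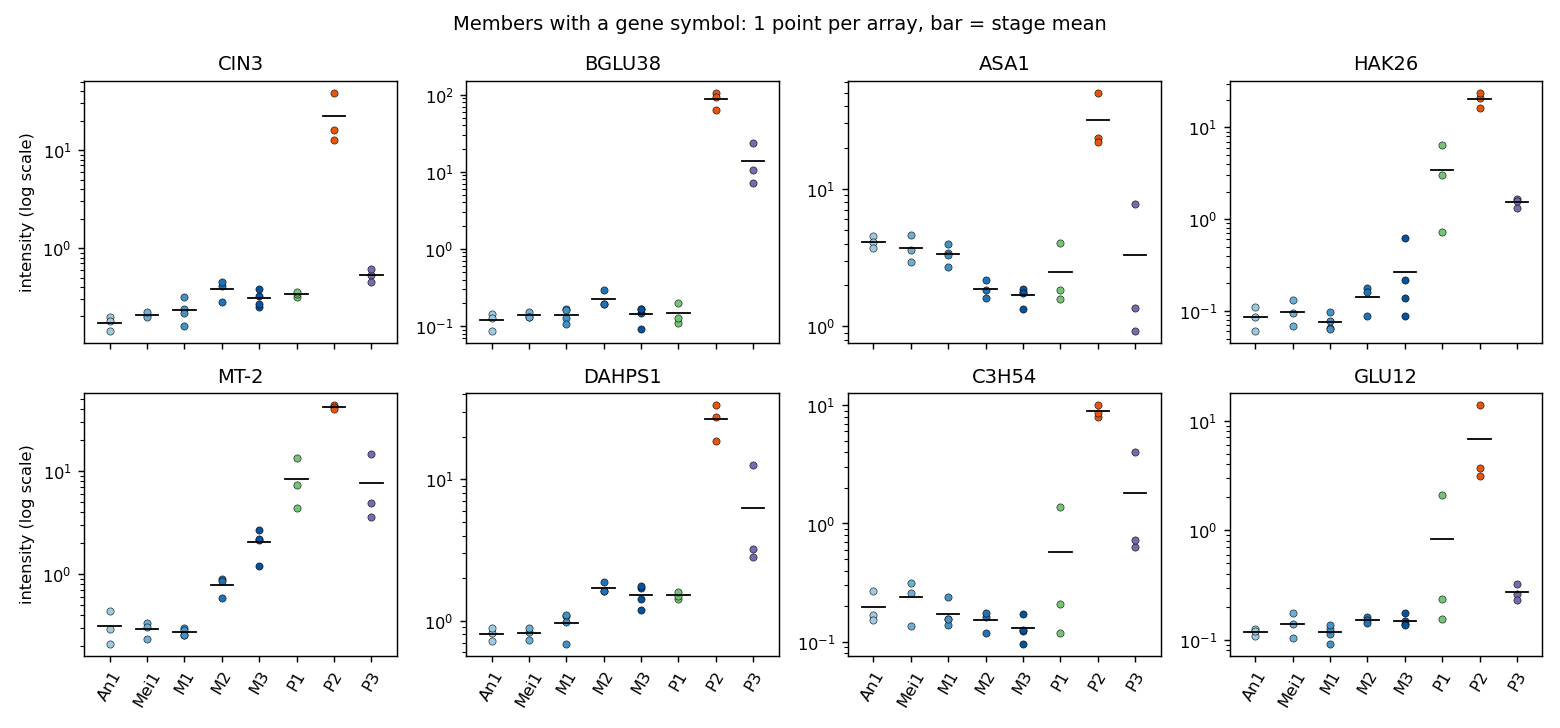
Points are the intensity on each array (log axis) of the 8 members with a gene symbol, by stage, and bars the stage means. Early levels are near the floor in CIN3, BGLU38 and GLU12, climb before P2 in MT-2, and stay above 1 in ASA1.

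The members with the largest margins had no gene symbol, and their products are not named in the tables used. LOC4334322 had the largest, 5.99 log2 units. It read 199, 167 and 181 in P2 and 0.425, 0.657 and 0.530 in P3. In P1 it was 0.292 and 0.318 on replicates 1 and 2 and 13.1 on replicate 3, with 0.174 to 0.532 (median 0.314) before. Outside P2 it was near the floor on every array but P1 replicate 3. LOC4341275 had a margin of 4.28 and read 97.6, 52.8 and 44.0 in P2, 1.95, 2.25 and 2.40 in P3 and at most 0.360 on all earlier arrays.

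LOC4350319 (23.0, 52.1 and 52.9 in P2; margin 4.02), LOC4349822 (58.2, 29.8 and 30.2; margin 3.80) and LOC4349410 (28.3, 30.0 and 25.0; margin 3.79) followed, and CIN3 was the sixth of 1 gene (3.77). In P3 these 3 read 0.617 to 2.17, 1.58 to 2.15 and 0.948 to 1.22. All 3 P3 arrays of each were above its 17 early arrays. By limma LOC4350319 rose from P1 to P3 by 1.08 (SE 0.22, adjusted p = 0.000375). The rise was 0.91 and 0.92 without P3 replicate 2 or 3, and 0.62 scaled on spike-in controls. At 0.15 (adjusted p = 0.712) and 0.58 (adjusted p = 0.000309), LOC4349822 and LOC4349410 did not pass both thresholds from P1 to P3.

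Whether members returned to their starting level after the peak was asked by comparing P3 with P1, whose means hold no P2 array; the P2 arrays enter through the filter and the estimate of the spread. By limma, with an adjusted p under 0.05 and a log2 difference of at least 1, 27 members (32.1%) were higher in P3 than in P1, 3 were lower and 54 were not called. Among all 47799 probe sets tested, 6.01% were higher and 5.24% lower. Scaled on spike-in controls instead, 15 members (17.9%) were higher and 7 (8.33%) lower, against 3.20% and 13.0% of probe sets tested, and the members' median difference was 0.18. In the scaling used here the median difference was 0.60 over the members and 0.13 over all probe sets tested, and it was above 0 for 68 of 84 members. All 3 P3 arrays lay above all 17 arrays from An1 to M3 for 62 members, against 16.1% of probe sets tested.

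After BGLU38, the largest rises were in LOC4348392, LOC4330584 and LOC4334658. LOC4348392 read 72.5, 121 and 123.3 in P2 and 7.12, 8.20 and 6.78 in P3, against 0.169, 0.240 and 0.711 in P1. It rose by 2.62 on the log2 scale (SE 0.15, limma adjusted p = 5.91e-12), and the P3 arrays lay within a narrow band above all P1 arrays. LOC4330584 was read by 2 probe sets, both members. The first gave 72.4, 83.8 and 84.4 in P2, 10.8, 7.09 and 6.85 in P3, and 0.0751, 0.0577 and 2.66 in P1.

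LOC4330584 rose by 2.50 by that probe set (SE 0.27, adjusted p = 1.78e-07), and the second had 96.3 ± 1.92 in P2 and 7.81 ± 1.04 in P3. LOC4334658 read 4.92, 7.32 and 5.73 in P3 and 0.223, 0.246 and 0.244 in P1, a rise of 2.48 (SE 0.26, adjusted p = 9.69e-08). Its P2 arrays differed, with 19.1 on replicate 1 and 68.6 and 63.0 on the others. None of these 4 rises lost its call under any alternative tried.

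A few members ran the other way, higher in P1 than in P3. LOC4338883 read 0.193, 7.97 and 72.4 in P1, 125, 69.0 and 52.1 in P2, and 0.487, 0.289 and 0.317 in P3. P1 replicate 3 thus lay within the P2 range while P1 replicate 1 lay below all P3 arrays. It fell by 2.76 from P1 to P3 (SE 0.75, limma adjusted p = 0.00341). Fitted on the P1 and P3 arrays alone, the same difference had an adjusted p of 0.110.

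LOC4343827 read 3.01, 1.69 and 5.64 in P1, 59.9, 30.3 and 32.3 in P2 and 1.04, 0.968 and 1.18 in P3. Every P1 array was above every P3 array, and it fell by 1.01 (SE 0.26, adjusted p = 0.00206). The fall was 0.67 without P1 replicate 3 and 0.98 without P3 replicate 2. The third member that fell has no gene in the tables used and was named after its values were seen (fall of 3.08, SE 0.59, adjusted p = 0.000173). Its P1 arrays read 1.55, 7.38 and 58.6 and its P3 arrays 0.194 to 0.425.

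**Figure D4:**
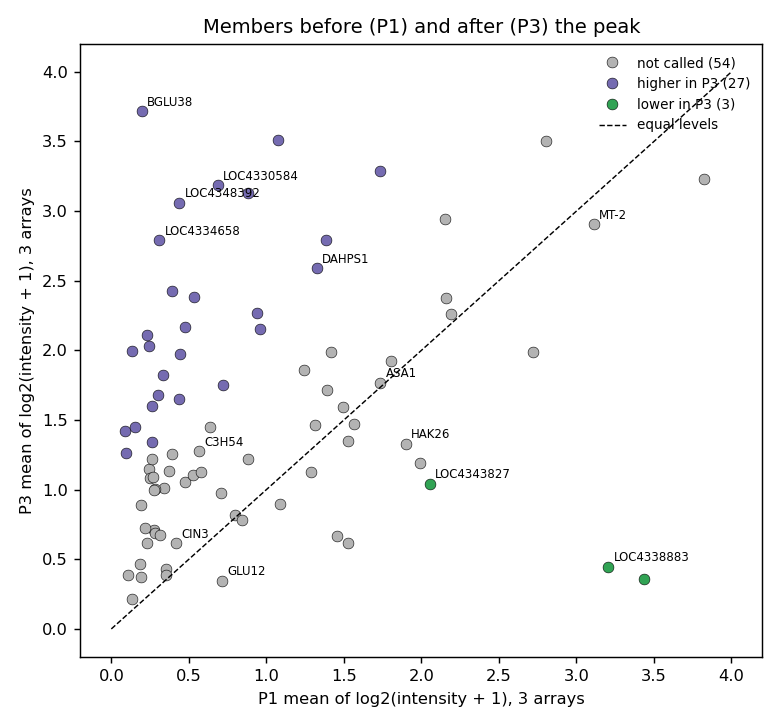
Each point is a member, with its mean of log2(intensity + 1) over 3 arrays in P1 (x axis) and in P3 (y axis); colours mark the 27 called higher in P3, the 3 called lower and the 54 not called, and the dashed line marks equal levels. Points called higher crowd at the left, near the floor of P1.

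Members whose next highest stage was P1 or P3 differed in these values, as that grouping implies. Of the 62 with P3 next, 26 were called higher in P3 than in P1 and 0 lower by limma. Of the 13 with P1 next, 0 were called higher and 3 lower. The 27th rise was in LOC4341720, named after its values were seen, whose profile had 2 peaks. It read 67.3, 73.0 and 80.2 in P2 and had a mean of 11.6 in M3 and 6.87 in M2, but 0.912, 0.348 and 0.182 in P1. From M3 to P1 it fell by 3.10 on the log2 scale (SE 0.21, adjusted p = 3.00e-09), and P3 was again higher (2.01, 5.81 and 5.97).

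Whether the rise had begun by the uninucleate stage was asked by comparing P1 with M3. By limma 8 members were higher in P1 and 1, LOC4341720, was lower, against 0.590% and 0.661% of all probe sets tested, and 75 were not called. Without P1 replicate 3 the counts were 3 higher and 1 lower, and without P1 replicate 1 they were 15 and 1. Over all probe sets tested these were 179 and 208 of 47690, and 416 and 440 of 47685. The median difference was 0.10 over the members and -0.01 over all probe sets tested, and without P1 replicate 3 it was 0.01 over the members. Of the 84, 65 passed the filter on the M3 and P1 arrays alone. Fitted on those arrays, 2 of the 65 were higher and 1 lower, against 211 and 240 of 36248 probe sets tested. HAK26 and MT-2, above, were among the 8. So were LOC4338883 (3.02, SE 0.70, adjusted p = 0.0105, and 1.52 with adjusted p = 0.0632 without P1 replicate 3) and LOC4344345 (1.24, SE 0.20, adjusted p = 0.000327, and 0.94 without P1 replicate 3).

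LOC4344345 read 1.94, 3.48 and 5.80 in P1, 17.01, 21.0 and 22.0 in P2, and 5.02, 4.35 and 3.36 in P3. Up to M3 it lay between 0.176 and 1.44, below all P1 arrays. P1 and P3 overlapped in this gene, and their difference did not pass (0.22, SE 0.21, adjusted p = 0.373).

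P1 replicate 3 stood apart from the other P1 arrays in the members. It was the highest P1 array for 59 of the 84, against 35.0% of all probe sets tested. It lay at least 1 log2 unit above the mean of replicates 1 and 2 for 21 members, against 0.818%, and at least 1 below it for 0. Of the 8 members called higher in P1 than in M3, 7 were among those 21. On that array the tapetum genes summed to 460, against 495 and 606 on replicates 1 and 2, and the green tissue genes to 35.7, against 87.6 and 99.9. KAO, WX1 and SUT1 summed to 1.81, against 0.904 and 0.867, and ADF1 read 0.218, against 0.271 and 0.276. Their part in the members' levels was not tested.

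**Figure D5:**
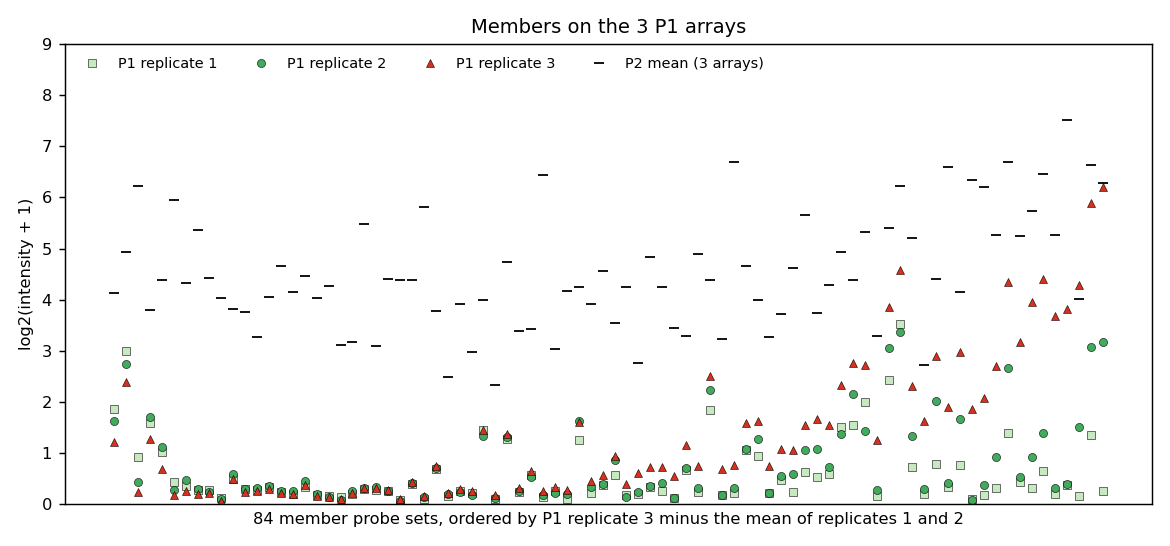
Markers show log2(intensity + 1) of each member on P1 replicate 1, 2 and 3, and dashes its P2 mean; members are ordered by replicate 3 minus the mean of the other 2. Replicate 3 rises towards the P2 mean in the members at the right, 21 of which are at least 1 log2 unit above.

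P2 replicate 1 also differed from its fellows, in both directions. It was the highest P2 array for 36 members, against 29.4% of all probe sets tested. It was at least 1 log2 unit above the mean of the other 2 P2 arrays for 12 members and at least 1 below for 11, against 0.590% and 1.60% of all probe sets tested. Among the 13 members with P1 as the next stage it was the highest P2 array for 12, and among the 62 with P3 next it was the lowest for 37. These counts by next stage were not made over all probe sets, so they are not read as a trait of the members. On P2 replicate 1 the tapetum genes summed to 259, against 166 and 159 on replicates 2 and 3. RTS was a large part of these sums. KAO, WX1 and SUT1 summed to 51.9, against 101.1 and 107. Among members of 1 gene, the widest spreads in P2 were those of LOC4343804 (43.5, 9.13 and 8.29), LOC4345285 (7.03, 33.2 and 25.5), GLU12 and LOC4352471 (9.54, 35.5 and 33.3).

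P3 replicate 1 was the highest P3 array for 41 members, against 22.4% of probe sets tested, and at least 1 above the mean of the other 2 for 16 (2.92% of those tested). ADF1 was lowest there among the P3 arrays, with 163 and 192 on the others. Without that array 24 members were called higher and 5 lower in P3 than in P1, against 3350 and 2981 of 50491 probe sets tested. DAHPS1, ASA1, MT-2, C3H54 and BGLU38 were all highest there within P3.

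Compared with the end of meiosis, 34 members were higher in P3 than in M3 by limma, 1 (LOC4341720) was lower and 49 were not called. Among all probe sets tested 6.25% were higher and 5.18% lower. The medians were 0.84 and 0.12. Scaled on spike-in controls, 23 members were higher and 2 lower in P3 than in M3, against 1838 and 3424 of 44381 probe sets tested. In the scaling used here, P3 was called higher than both P1 and M3 in 24 members. Both comparisons use the same P3 arrays, and this count was not made over all probe sets.

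By the limma F test over An1 to M3, 7 of 84 members (8.33%) were called, against 7.34% of all probe sets tested, a share near that of the array. Filtered and fitted on those arrays alone, 58 members could be tested, of which 8 were called (13.8%), against 8.67% of the probe sets tested there. The 7 were MT-2, LOC4343827, LOC4341720, LOC9270100, LOC4346854, LOC4339889 and the member that names several genes; LOC4341720 and the last 4 were singled out after their values were seen. MT-2 climbed from 0.277 ± 0.0224 in M1 to 2.06 in M3, and LOC4343827 was 1.45 in M3. LOC4339889 ran the other way, from 3.31 in An1 to 0.591 in M3.

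Of the members, 59 name 1 gene, 1 names several and 24 name none, and the 59 stand for 56 genes. Of the 56, all matched the RefSeq gene table of assembly ASM3414082v1, used for names and gene order. They lie on all 12 chromosomes, with 3 to 7 genes on each, and 0 pairs lie within 10 protein-coding genes of each other. Probe sets without a gene had a median P2 mean of 17.1, and those with 1 gene 21.0. Sets designed from predicted genes (OsAffx) made up 14.3% of the members and 44.6% of all probe sets. Of the members, 14 carry a suffix for probes that can bind related transcripts.

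Where a member gene had more than 1 probe set (9 genes), all were members for 2 genes, LOC4330584 and LOC4341498. The other 7 genes had 9 further probe sets outside the rule, 6 of them highest in P2 as well. Those of LOC4337930 and LOC4344207 (names chosen after their values were seen) had P2 means of 5.04 ± 0.709 and 2.31 ± 0.867 with lower margins (1.53 and 0.91). Those of LOC4339696, named after its values were seen, and LOC4339154 had margins of only 0.10 and 0.30. The further probe sets not highest in P2 were those of LOC4339889 and GLU12 and 1 of MT-2.

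Close to the threshold, the 4 members of 1 gene just inside were LOC4344345 (margin 2.01), LOC4339154 (2.01), GLU12 and LOC4339637 (both just above 2). LOC4331583 (1.98), LOC4352876 (1.95), LOC4346934 (1.93) and LOC4340325 (1.93) lay just outside. LOC4346934 had 78.8 ± 5.51 in P2 but 19.4 in P1 and 24.4 in P3. Its P2 mean was above the members' median.

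Other genes of the pathways were read from lists of symbols; a gene was tested where it passed the filter. P2 against P1 and P3 against P2 are given here for genes outside the members alone, and these 2 comparisons were added after values were seen. Among all probe sets tested, 3.23% were higher and 2.24% lower in P2 than in P1. In P3 4.22% were higher and 4.07% lower than in P2. The highest stage mean was in P2 for 9.82%.

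Of 8 starch enzymes tested, 3 were highest in P2 and 3 rose from P1 to P2 by limma, the same 3 falling from P2 to P3. These were Wx, AGPS2 and SSI, chosen after their values were seen. Wx (LOC4340018), the starch synthase that makes amylose, went from 0.154 ± 0.0550 to 30.9 ± 14.6 and then 10.5 ± 5.70 (SD, n = 3). AGPS2 (LOC4345339), a subunit of the enzyme that makes ADP-glucose, went from 3.34 ± 1.17 to 12.8 ± 1.81 and 4.05 ± 2.99. Neither met the margin of 2.

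The gibberellin list had 15 genes tested, of which 4 UGE genes came in by symbol and act in sugar nucleotide metabolism. Among the other 11, 4 were highest in P2: KAO, KO1 (LOC4341347), ks1 and GA20OX3. GA20OX3 (LOC4342505), which makes precursors of active gibberellin, was 10.7 ± 7.67 in P1, 43.0 ± 6.59 in P2 and 12.4 ± 1.96 in P3. KAO (LOC4339885) fell by 1.19 from P2 to P3 (SE 0.17, limma adjusted p = 1.13e-05) and so kept too much in P3 for the rule. CPS1 (LOC4329013), an early enzyme of the pathway, was highest in P3 (37.2 ± 10.3, against 19.7 ± 5.30 in P2). These genes were chosen after their values were seen.

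Of 36 sugar supply genes 5 were highest in P2, CIN3 among them, and of the 35 outside the members 4 rose and 5 fell from P1 to P2. CIN2 (LOC4335790), another cell wall invertase, peaked earlier, with 17.9 ± 2.90 in M3 and 3.87 ± 0.501 in P2, and CIN1 (LOC4329561) later, with 3.84 ± 1.34 in P3 and 0.586 ± 0.214 in P2. Membrane transport genes were highest in P2 in 18 of 80. Of 79 non-members 11 rose and 5 fell from P1 to P2, and 13 rose and 7 fell from P2 to P3. Among the membrane transport genes PT7 (LOC4331542), a phosphate carrier by its symbol, went from 3.38 ± 4.18 to 11.2 ± 1.59 and 0.893 ± 0.0793. CIN1, CIN2 and PT7 were chosen after their values were seen.

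Of 83 calcium signalling genes 16 rose and 4 fell from P1 to P2, and 22 rose and 2 fell from P2 to P3. Of these genes 9 were highest in P2 and 0 were members. Of 64 cell wall genes 3 were highest in P2, with 6 higher and 12 lower in P2 than in P1. Of 33 actin and ROP genes 3 were highest in P2, and 7 rose and 4 fell. Of 236 transcription factor genes 18 were highest in P2, and 11 non-members rose and 12 fell. Lipid transfer and storage genes were highest in P2 in 0 of 15.

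By families added after values were seen, beta-glucosidases were highest in P2 in 5 of 25, endoglucanases in 3 of 10 and metallothioneins in 2 of 7. BGLU34 (LOC4348315), chosen after its values were seen, had 0.174 ± 0.0313 in P1, 10.8 ± 3.31 in P2 and 6.75 ± 4.74 in P3. Among the other marker lists, 7 of 10 tapetum genes fell from P1 to P2 by limma and 1, RTS, was highest in P2. RTS (LOC4326940) read 144 ± 33.5 in P2 and 85.8 ± 76.6 in P1, and so made up much of the summed tapetum intensity in P2. Meiotic germ line genes were highest in P2 in 0 of 6.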

How the data were processed

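Anther RNA was labelled from 500 ng of total RNA and read on 26 arrays. What the authors deposited is linear intensity, with the 75th percentile of every array at 1; the submitters' processing notes name GCOS 1.3 without its step, and background correction is not given in the sources used here. All 26 columns were used. An array holds no count of molecules, and precision is limited by how many arrays there are. Genes came from the platform's probe table and RefSeq symbols.

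Values were analysed as log2(intensity + 1). Tests covered the 47799 probe sets (all members included) whose mean passed the 40th percentile of the log2 values in 1 or more stages, with limma 3.58.1 in R 4.3.3 over the 8 stage means, an intensity trend and Benjamini-Hochberg adjustment over all of them. A call needed an adjusted p under 0.05 and a log2 difference of at least 1, or for the F test stage means spanning 1. Tests were two-sided. The fit was tested on simulated data. Tables and figures used Python 3.11.15, numpy 2.4.6, pandas 2.3.3 and matplotlib 3.10.9.

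The members and lists were chosen with earlier results of these data known. Genes named were members of 1 gene that had a symbol, were on a list, had the 4 largest changes each way from P1 to P3, lay just inside or outside the margin, had the 6 largest margins, or had the 4 widest spreads in P2. Alternatives were other pseudocounts, scalings, filters, margins and fits, a replicate block, and leaving out each array.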

Additional observations from a re-analysis of the deposited data

How the results depend on the processing

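The number of members depended on the pseudocount and margin: it was 34 with a pseudocount of 4, 128 with 0.25, 166 with a margin of 1.5, 26 with a margin of 3 and 35 where every P2 array had to lie 2 above every other array. It was 65 with quantile normalization, 88 with median-centred arrays and 85 with spike-in scaling, of which 74 were among the 84. Leaving out each array in turn gave 70 to 93 members, with P3 next highest for 53 to 68 of the 84. With spike-in scaling P3 was next highest for 48 of the 84, with no such count over all probe sets. Members called between P1 and P3 numbered 8 with a pseudocount of 4 and 46 with 0.25 (30 in the report; 28 to 35 leaving out 1 array). Between M3 and P1 they were 4 and 15, 14 with spike-in scaling, 3 with the arrays of those stages alone and 5 without P1 replicate 3 and P3 replicate 1, a setting chosen after seeing the data (9 in the report; 4 to 16 leaving out 1 array). Between M3 and P3 they were 10 and 56 (35 in the report; 32 to 36), and from An1 to M3 they were 1 and 11, and 4 with spike-in scaling (7 in the report; 6 to 8). Calls over all probe sets moved too. Of 47920 tested with a pseudocount of 4, 1480 were higher and 918 lower in P3 than in P1. Of 47542 with 0.25, 4476 were higher and 4259 lower. From M3 to P1 they were 106 and 125 with 4, and 508 and 596 with 0.25. From M3 to P3 they were 1531 and 948, then 4649 and 4363. From An1 to M3, 1168 and 6677 were called. With spike-in scaling, of 44381, 665 were higher and 167 lower from M3 to P1, and 3586 were called from An1 to M3. From M3 to P3, 1838 were then higher and 3424 lower, and 25 members were called. A larger pseudocount shrinks differences at low intensities by construction. The other causes were not tested.

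Spike-in scaling moved the median P3 minus P1 difference of all probe sets from 0.13 to -0.13 and the members' calls from 27 higher and 3 lower to 15 and 7. With the replicate block the counts were 30, 8, 35 and 7 in the same order. The replicate numbers did not pair the arrays: over 85 same-numbered pairs the correlation of deviations from the stage means had a median of -0.01 (-0.29 to 0.54), and 8 of 26 arrays correlated best with their own number. Of 2734 recomputed values of named members, 2637 kept direction and call, 68 lost and 29 gained a call, and 0 reversed. Intensities under about 1 are near the floor of the array, where these data cannot show small differences. The 3 to 4 arrays per stage limit the precision.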

Other observations

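Subunits of succinate dehydrogenase, the enzyme of the citric acid cycle and the respiratory chain, were all highest in P2, although none was a member; the list was added after values were seen. All 8 genes tested had their highest stage mean there, as did 9.82% of all probe sets tested. Because the list was picked with values known, setting these shares side by side is a description and no test. SDH1 (LOC4342350) went from 16.3 ± 1.35 in P1 to 38.9 ± 8.52 in P2 and 19.0 ± 1.53 in P3 (SD, n = 3), a rise of 1.18 on the log2 scale from P1 to P2 (SE 0.16, limma adjusted p = 7.07e-06). SDH4 (LOC4326521) went from 11.6 ± 1.44 to 26.6 ± 5.17 and 14.2 ± 2.02 (rise of 1.11, SE 0.15, adjusted p = 5.85e-06). These were the 2 of 8 past both thresholds, and the median difference over the 8 was 0.98, against 0.01 over all probe sets tested. On the P2 arrays SDH1 read 29.2, 42.7 and 44.9, with replicate 1 the lowest.

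The IAA genes, which encode repressors of auxin response, also had a share highest in P2. They were picked out of the transcription factor list after values were seen. Of 25 tested, 8 were highest in P2, and by limma 7 rose and 0 fell from P1 to P2. From P2 to P3, 4 IAA genes rose and 4 fell. Their median difference from P1 to P2 was only 0.08, so most did not move much. Among the other 211 genes of that list 10 were highest in P2. Outside the members, 4 of these rose and 12 fell from P1 to P2 (median -0.09), and 18 rose and 5 fell from P2 to P3. IAA17 (LOC4338160) went from 34.1 ± 1.91 in P1 to 74.7 ± 5.16 in P2 and 13.7 ± 7.24 in P3 (limma adjusted p = 0.00244 and 1.26e-07). IAA10 (LOC4331149) went from 3.80 ± 1.98 to 14.9 ± 0.681 and 4.77 ± 5.01 (adjusted p = 0.000548 and 0.000371). Whether the IAA genes differ from the rest of the list was not tested.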
